A study of Mytilus galloprovincialis with 16 samples.

Results

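Elongation factor-1 alpha was represented on the mussel array by 3 cDNA probes, AJ625505, AJ624922 and AJ625361, among 1920 probes in all. The members were the probes with these EMBL identifiers, an elongation factor-1 alpha description in the study's annotation and a row in its list of transcripts that varied in female mantle, so they had been selected for their changes on these same arrays. Each was tied to its clone on the array by matching the 3 listed stage values to stage coefficients computed from the deposited ratios. The largest difference within a match was 0.0025 for AJ625505, 0.00136 for AJ624922 and 0.00162 for AJ625361, under a limit of 0.005, and the closest other clones lay 0.0644, 0.0512 and 0.141 away. The stage changes of the 3 probes are therefore given as descriptions, and these probes are tested only on contrasts orthogonal, or nearly so, to those stage coefficients. Such contrasts can still have entered the study's selection through the spread that its test used. All other probes named by a description, markers included, come from the same list, so counts of calls among them are no independent evidence of a change or its direction.

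Elongation factor-1 alpha is the GTP-binding protein that carries aminoacyl-tRNA to the ribosome during protein synthesis. After each delivery it is recharged with GTP by an exchange complex to which elongation factor-1 gamma and delta belong, while elongation factor 2 moves the ribosome along the messenger RNA. The protein is among the most abundant of eukaryotic cells, and in several animals, such as Xenopus, it exists in germ cell and somatic forms.

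The arrays compared the mantle, which in this bivalve (Mytilus galloprovincialis) houses the gonad, of single female mussels from Bizerta Lagoon at 4 histological stages of gonad development. Animals of stage 1 had an early gonad and were sampled in November, those of stage 2 a developing gonad in January, those of stage 3 a ripe gonad in February, and those of stage 4 were spawning in March, so stage and month cannot be told apart. The comparisons closed a loop (stage 2 against 1, stage 3 against 2, stage 4 against 3 and stage 4 against 1), each with 4 dual-color arrays, 2 of them with the dyes swapped. Values below are log2 ratios of the later over the earlier stage, after background correction and loess normalization within each array, averaged over the 2 spots of a probe.

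RNA came from single animals, with 4 biological replicates per the labels, but no label ties an animal to an array, and the p-values below rest on the spread between arrays alone. For replicate 4 of stage 3 against 2, one label names stage 4 where title and sampling month give stage 3, which was used. Depending on the channel, 44.5% to 92.4% of the probe spots exceeded a limit set at the 95th percentile of empty spots. Egg envelope and germ line markers (3 probes) were above that limit in all 32 channels and those of sperm and axoneme (3) in 31 of 32. Those of digestive gland (3) were above it in 30 to 32 and those of muscle (2) in 31 and 32. Each thus gave a signal above empty spots, but whether that signal was specific to the named transcript was not tested. In such bulk samples, fewer cells of a type and less RNA per cell cannot be told apart.

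AJ624922 is the clone annotated as eukaryotic translation elongation factor 1 alpha 1, and together with AJ625505 it carries the annotation of the C-terminal domain of the elongation factor Tu and 1A family. AJ625361, described as elongation factor-1 alpha, was annotated instead with domain 2 of that family and also with a chitin binding domain. The descriptions do not say whether the 3 clones are separate genes or pieces of one, and similar transcripts may hybridize to more than 1 cDNA probe. The sequences given in letters are the oligonucleotides of a quantitative PCR assay that the study designed for AJ624922, shown because they identify the transcript that the assay was designed to detect, written 5′ to 3′. Their places on the clone were not determined here.
AJ624922 TaqMan probe: acaaactgtcgccgtaggagtcatcaaa
AJ624922 sense primer: cgttttgctgtccgagacatg
AJ624922 antisense primer: ccacgcctcacatcatttcttg

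With loess normalization of whole arrays, all 3 probes were higher at stage 2 than at stage 1 on every array where their spots were measured above background. AJ625505 had log2 ratios of 1.58, 0.43, 0.50 and 0.44 on replicates 1 to 4. Its mean was 0.74 ± 0.56 (SD, n = 4), and replicate 1 stood apart from the other arrays. AJ624922 had -0.19, 0.38, 0.52 and 0.48, averaging 0.30 ± 0.33 (SD, n = 4). The one value below 0 was again that of replicate 1, where the spots of AJ624922 were as dark as empty spots.

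On that array the net intensity of AJ624922 was -5 in the stage 2 channel, against 7.50 in the stage 1 channel, and the 95th percentiles of the empty spots were 10 and 18. Of 598 probes that were above the empty spots in both channels of the other 15 arrays, 30 were above them in neither channel there. All 30 lay in print block 6, the block that also holds AJ624922 (30 of its 36 such probes). The ratio of AJ624922 on that array was therefore taken between a pair of background readings. Without replicate 1 the means came close together, at 0.46 ± 0.04 for AJ625505, 0.46 ± 0.07 for AJ624922 and 0.43 ± 0.09 for AJ625361 (SD, n = 3), which is 1.37-fold, 1.38-fold and 1.35-fold.

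AJ625361 had 0.98, 0.52, 0.34 and 0.43 at stage 2 against 1, a mean of 0.57 ± 0.28 (SD, n = 4). Here too replicate 1 gave the highest value. The ratios of AJ625505 and AJ625361 were above 0 on all 4 arrays, which was also true of 18.0% of all probes. The size of this rise depended on the dye normalization. With a loess curve for each print block the means were 0.033 for AJ625505, which was then above 0 on 2 of 4 arrays, 0.039 for AJ624922 and 0.38 for AJ625361 (0.027, 0.11 and 0.24 without replicate 1). With median centring alone they were 1.54, 1.17 and 0.96.

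The largest differences of the loop came next. At stage 3 against stage 2, when the gonad was ripe, AJ625505 had -1.84, -1.04, -1.41 and -1.46 and averaged -1.44 ± 0.33 (SD, n = 4), a level at stage 2 that was 2.71-fold that at stage 3. AJ624922 had -1.79, -1.19, -1.46 and -1.49 and averaged -1.48 ± 0.25, which is 2.80-fold. Array by array these 2 probes differed by no more than 0.16 on the log2 scale, with a mean difference of 0.05 ± 0.08 for AJ625505 minus AJ624922.

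AJ625361 was lower by less, at -1.17, -0.82, -1.0 and -0.58, with a mean of -0.89 ± 0.25 (SD, n = 4) or 1.86-fold. Within each array it was less negative than AJ625505, by 0.21 to 0.88 (mean 0.54 ± 0.29), and than AJ624922, by 0.37 to 0.91 (mean 0.59 ± 0.23). All 3 probes were below 0 on all 4 arrays, as were 22.2% of all probes. Without replicate 4, whose labels conflict, the means were -1.43 for AJ625505, -1.48 for AJ624922 and -1.0 for AJ625361.

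The sign of AJ625505 at this step, though not of the other probes, depended on how the dye bias was fitted. With a loess curve for each print block the mean of AJ625505 was 0.12 in place of -1.44, while that of AJ624922 was -0.95. The mean of AJ625361 was then -0.87, below that of AJ625505 and close to that of AJ624922. That AJ625361 was lower by less thus also depended on the normalization. Few spots were as bright as AJ625505. Over the 16 arrays between 59 and 309 of 3840 spots had a higher intensity, of which 2 to 15 were among the 240 in its own block. AJ624922 had 40 to 222 brighter spots on the 15 arrays where it was measured, with 3 to 17 in its block. AJ625361, in the same block as AJ625505, had 777 to 2466, with 64 to 182 in the block. The part of this in the difference was not tested.

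Markers of other cell types moved at the same step. The 3 egg envelope and germ line probes were all higher at stage 3 than at stage 2, by 1.09 to 2.16 on the log2 scale, as were the 3 probes of sperm and axoneme, by 0.57 to 1.61 (limma, adjusted p under 0.05 and log odds B above 0, against 8.39% of all probes called higher). The log2 of the summed level of the egg and germ line probes ran from 11.15 to 12.44 over the 8 channels of stage 3 and from 8.70 to 11.22 over those of stage 2. Of the muscle probes, AJ624863 (unc-89) was higher at stage 3, by 1.24, and AJ623579, a sarcoplasmic calcium-binding protein, was at -0.80, called lower like 6.41% of all probes. Of the digestive gland probes, the trypsin-like AJ624548 was at 1.47 (adjusted p = 0.00173, limma). It did not pass both thresholds, as its B was not above 0. The others hardly differed, with AJ624381 (alpha-amylase) at -0.02 and AJ623374 (endo-beta-glucanase) at 0.05. At stage 2 against 1, where 4.64% of all probes were called lower, the digestive gland probes were lower in 3 of 3 and the egg and germ line probes in 2 of 3. For stage 4 against 1, where 4.69% were, 1 of 3 digestive gland, 2 of 3 egg and germ line and 1 of 2 muscle probes were lower. The part of tissue composition in the values of elongation factor-1 alpha was not tested.

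**Figure D1:**
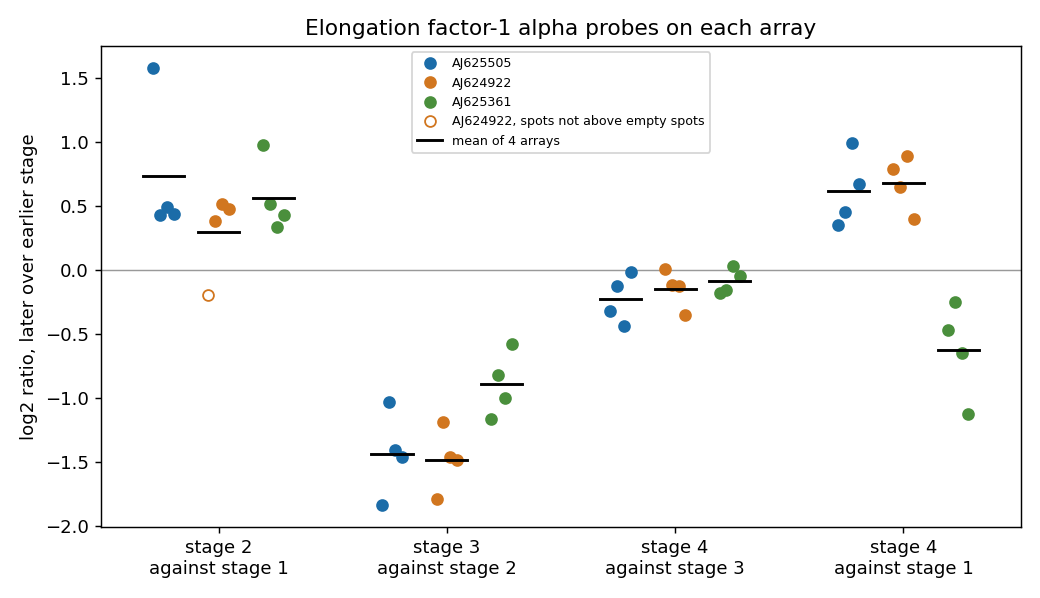
Log2 ratio of the later over the earlier stage (vertical axis) of AJ625505, AJ624922 and AJ625361 on each of the 4 arrays of each comparison (horizontal axis), with bars at the means and an open circle for the array on which AJ624922 was not above the empty spots. All 12 values of stage 3 against 2 are below 0, and at stage 4 against 1 AJ625361 is below 0 on all 4 arrays while the other probes are above 0.

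From ripe to spawning gonad the 3 probes differed little. AJ625505 had -0.32, -0.13, -0.43 and -0.01 at stage 4 against 3, AJ624922 had 0.00, -0.11, -0.12 and -0.35, and AJ625361 had -0.18, -0.15, 0.03 and -0.05. The means were -0.22 ± 0.19, -0.15 ± 0.15 and -0.09 ± 0.10 (SD, n = 4). The means of AJ625505 and AJ624922 were above 0, at 0.26 and 0.31, with median centring in place of loess. AJ625505 was below 0 on all 4 arrays, like 16.1% of all probes. AJ625361 was dim on these arrays, with net intensities of 19.5 to 66.5 in the channels of both stages. With plain background subtraction its mean was -0.22.

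The direct comparison of spawning with early gonad separated AJ625361 from the others. At stage 4 against stage 1, AJ625505 had 0.36, 0.46, 0.99 and 0.68, with a mean of 0.62 ± 0.28 (SD, n = 4) or 1.54-fold. AJ624922 had 0.79, 0.65, 0.89 and 0.40, with a mean of 0.68 ± 0.21 or 1.61-fold. AJ625361 lay on the opposite side of 0, at -0.47, -0.25, -0.65 and -1.13, with a mean of -0.62 ± 0.37, a level at stage 1 that was 1.54-fold that at stage 4.

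On the same arrays the difference of AJ625361 minus AJ625505 ran from -1.80 to -0.70 (mean -1.24 ± 0.56) and that of AJ625361 minus AJ624922 from -1.54 to -0.90 (mean -1.31 ± 0.30). A shift of a whole array cancels in this quantity, but a bias that depends on spot intensity or print block does not. AJ625505 minus AJ624922 averaged -0.06 ± 0.31. The first 2 probes were above 0 on all 4 arrays, as were 13.8% of all probes, and AJ625361 was below 0 on all 4, as were 22.5%. The signs of the 3 means at this comparison were the same under each of the 12 alternative treatments of the data, but their sizes were not. With median centring alone AJ625505, AJ624922 and AJ625361 had 1.89, 2.00 and -0.58. With a loess curve for each print block they had 0.32, 0.71 and -0.50.

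Since stage 4 was reached from stage 1 both directly and over 3 steps, the sum of the steps can be set against the direct hybridization. This contrast is orthogonal to the least squares stage coefficients that the selection used, and was tested with limma over all probes. For AJ625505 the 3 steps added up to -0.92 (SE 0.30), against a direct value of 0.62 (SE 0.17), a mismatch of -1.54 (SE 0.35, adjusted p = 0.00765). For AJ624922 the steps added up to -1.33 (SE 0.21), against 0.68 (SE 0.12), a mismatch of -2.02 (SE 0.25, adjusted p = 9.71e-05). The routes thus gave opposite signs for the same pair of stages, though not under every normalization. In AJ625505 the steps added up to 0.20, against a direct value of 1.89, with median centring alone, and to 0.023, against 0.32, with a loess curve for each print block, so that the signs were the same. In AJ624922 the sum was below 0 under all 6 processing alternatives (-1.60 to -0.14), but with median centring and without replicate 1 of stage 2 against 1 it was 0.33.

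For AJ625361 the steps added up to -0.41 (SE 0.23), against a direct value of -0.62 (SE 0.13), and the mismatch of 0.21 (SE 0.27) did not pass the test (adjusted p = 0.679, limma). Over all probes 13.5% passed, 5.78% with a mismatch below 0 and 7.76% above. Without replicate 1 of stage 2 against 1, the mismatch was -1.82 for AJ625505 (SE 0.26, adjusted p = 0.000426, limma), -1.85 for AJ624922 (SE 0.22, adjusted p = 0.000112) and 0.07 for AJ625361 (SE 0.26, adjusted p = 0.921), so the first 2 probes then nearly coincided. With a loess curve for each print block, that of AJ625505 was -0.29 (adjusted p = 0.411), and that of AJ624922 still passed. With median centring alone neither passed, and with scale normalization between arrays AJ625505 did not.

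**Figure D2:**
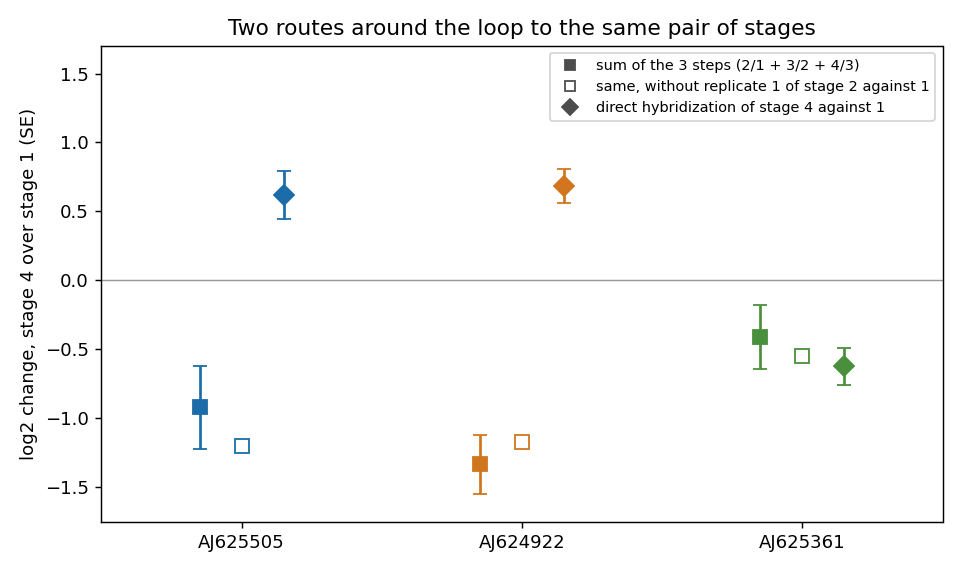
Log2 change of stage 4 over stage 1 (vertical axis, bars are SEs of the limma fit) by the sum of the 3 steps (filled squares), by the same sum without replicate 1 of stage 2 against 1 (open squares) and by direct hybridization (diamonds). The sums of AJ625505 and AJ624922 (-0.92 and -1.33) lie below 0 and their direct values (0.62 and 0.68) above, while the routes of AJ625361 (-0.41 and -0.62) meet within their errors.

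In AJ625505 the stage 1 channels averaged 10.58 ± 0.47 (normalized log2 intensity, SD, n = 4) when hybridized against stage 2 and 9.73 ± 0.34 when hybridized against stage 4, while its stage 4 channels averaged 9.58 ± 0.36 against stage 3 and 10.35 ± 0.35 against stage 1. In AJ624922 the stage 1 channels lay between 10.83 and 11.31 on the arrays with stage 2 (mean 11.06 ± 0.24, SD, n = 3, without the dark array) and between 9.93 and 10.45 on those with stage 4 (mean 10.14 ± 0.24, n = 4). Its stage 4 channels lay between 9.60 and 10.16 on the arrays with stage 3 and between 10.72 and 10.87 on those with stage 1, so neither stage overlapped between its sets. In AJ625361 the stage 4 channels averaged 6.84 ± 0.20 and 6.86 ± 0.16 in these sets, and the stage 1 channels 7.52 ± 0.29 against stage 2 and 7.49 ± 0.32 against stage 4. The levels of stages 2 and 3 in AJ625505 were closer between sets, at 11.32 and 11.48 for stage 2 and at 10.04 and 9.80 for stage 3. Different animals, array sets and hybridization partners cannot be told apart here. These levels rest on loess of whole arrays. With a loess curve for each print block the loop mismatch was -0.29 in AJ625505 (adjusted p = 0.411, limma) and -1.80 in AJ624922 (adjusted p = 0.000183). The part of the normalization in the split was not tested.

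Over all 8 channels, stage 2 held the highest levels of each probe. In AJ625505 they ran, as lowest, median and highest log2 intensity, over 9.54, 10.07 and 10.88 at stage 1, 10.99, 11.41 and 11.73 at stage 2, 9.61, 9.92 and 10.18 at stage 3, and 9.17, 9.94 and 10.70 at stage 4. After loess of whole arrays, stage 2 thus lay above all channels of the other stages, and these overlapped one another. With a loess curve for each print block its mean log2 ratios were 0.033 at stage 2 against 1 and 0.12 at stage 3 against 2. The separation of stage 2 in AJ625505 therefore depended on the normalization. In AJ624922, without the array on which it was dark, stage 1 had 9.93, 10.45 and 11.31 and stage 2 had 11.31, 11.65 and 11.85 (n = 7 channels each), where stage 3 had 9.86, 10.09 and 10.66 and stage 4 had 9.60, 10.44 and 10.87. The highest channel of stage 1 and the lowest of stage 2 met, and stages 1, 3 and 4 overlapped.

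The order was different in AJ625361, which went from 7.18, 7.45 and 7.94 at stage 1 over 7.59, 8.13 and 8.45 at stage 2 and 6.71, 7.11 and 7.37 at stage 3 to 6.66, 6.82 and 7.12 at stage 4. Stages 1 and 2 overlapped, as did 3 and 4 and, narrowly, 1 and 3, but all 8 channels of stage 4 lay below all 8 of stage 1. Levels of one probe are not comparable with those of another. AJ625505 and AJ625361 were above the empty spots in 32 of 32 channels and AJ624922 in 30, the exceptions being those of the dark array. The spots of a probe differed by a median of 0.06 in AJ625505, 0.07 in AJ624922 and 0.13 in AJ625361 on the log2 scale, against 0.15 over all probes. A dye effect was not detected for any of the 3 (Cy5 over Cy3 of -0.09, 0.07 and -0.01, adjusted p = 0.591, 0.567 and 0.951, limma), and 1.15% of all probes had one. With median centring alone it passed the test in AJ625505 and AJ624922.

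**Figure D3:**
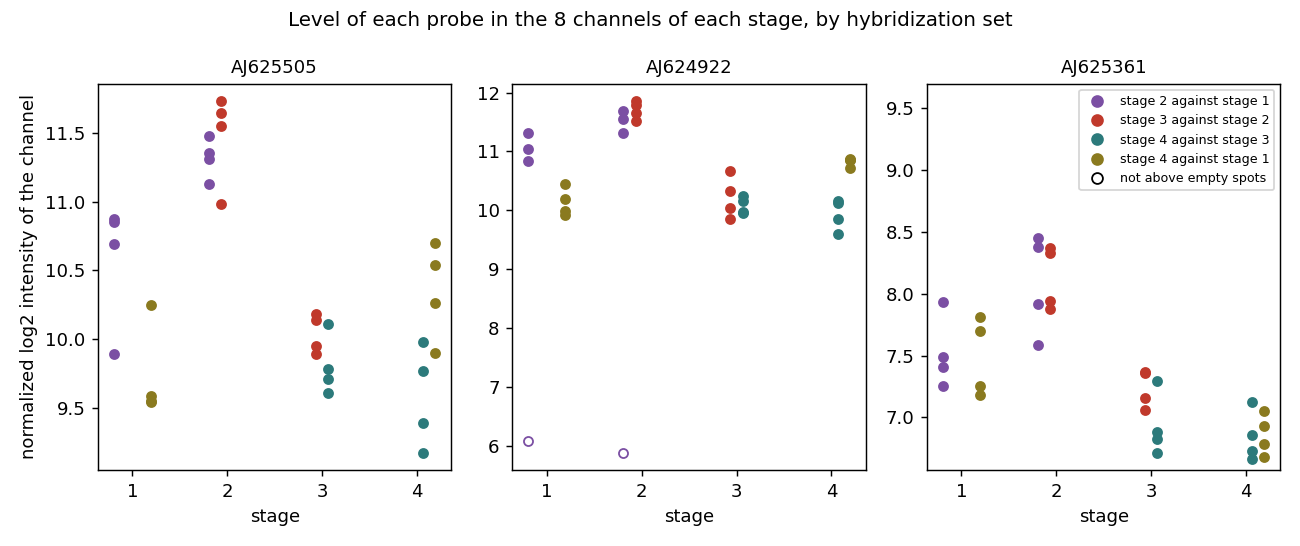
Normalized log2 intensity (vertical axis, a separate scale for each probe) in the 8 channels of each stage (horizontal axis), coloured by the comparison the array belonged to, with open circles where the spots were not above the empty spots. After loess of whole arrays, stage 2 is highest in AJ625505 (10.99 to 11.73), its stage 1 and stage 4 channels are split by array set, and the open circles of AJ624922 lie at 6.08 and 5.88.

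The probes were next compared by Pearson's r of their log2 ratios over the 16 arrays, which belong to 4 comparisons. Arrays of 1 comparison are not independent points for r, which is given as a description. AJ625505 and AJ624922 had r = 0.86, or 0.97 without replicate 1 of stage 2 against 1. The spots of AJ624922 were dark on that array, which is included in its r values below. How far it moved them was not tested. AJ625361 had r = 0.61 with AJ625505, which ranked 161 among its r values with the 1919 other probes, and 0.44 with AJ624922. These values were 0.97 and 0.86 without the arrays of stage 4 against 1.

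The probe most like AJ625361 was the chitinase AJ624637 (r = 0.95), a chitin-hydrolysing enzyme, followed by AJ623739 (0.94), which has no description, and AJ625253 (0.93), described as a variable surface lipoprotein. The 6 chitinases together with AJ625276, which carries a chitin term, had a median r of 0.87 with AJ625361 (0.84 to 0.95) and were all among its 43 closest probes. Their median r was 0.41 with AJ625505 and 0.19 with AJ624922, the latter with its dark array included. Over all other probes the medians were -0.04 for AJ625361, -0.17 for AJ625505 and -0.19 for AJ624922. Without the arrays of stage 2 against 1 the median for AJ625361 and this list was 0.67.

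At stage 4 against 1 the chitin list itself was lower in 7 of 7 probes, with a median of -2.39, where 4.69% of all probes were called lower. At stage 3 against 2 it was again lower in 7 of 7, with a median of -2.24, where 6.41% were. At stage 2 against 1, where the median was 1.00, none passed both thresholds. There 7 were higher at an unadjusted p under 0.05, against 226 of the 1920 probes, and 6 at an adjusted p under 0.05 alone, against 121 (limma). At stage 4 against 3, where the median was -0.18, none passed both thresholds and 0 had an unadjusted p under 0.05. At that level 188 of the 1920 probes were higher and 141 lower. Replicate 1 of stage 2 against 1 gave the highest value in 7 of 7, as it did in 29.8% of all probes. The median of the list on that array was 2.30. These genes were listed by the study on the same arrays, so their direction is not independent evidence. The values of AJ625361 had the same signs as these medians and were smaller at every comparison, though its stage 4 channels were dim. On the arrays of stage 4 against 3 its stage 3 channels were dim as well. With plain background subtraction its mean at stage 4 against 1 was -1.10 in place of -0.62.

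AJ625505 was most like AJ623808 (r = 0.97), AJ626230 (0.96) and AJ625127 (0.96), none of which has a description. AJ624922 was most like the clones Myt01-014C10 (0.94) and Myt01-007G06 (0.90), to which no identifier was tied, and AJ625241 (0.90), which has no description. The other translation factors had a median r of 0.83 with AJ625505, 0.69 with AJ624922 and 0.46 with AJ625361. The ribosomal proteins (43 probes) had -0.13, -0.08 and 0.13. The values of AJ624922 include its dark array, on which the median log2 ratio of the other translation factors was 0.78.

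**Figure D4:**
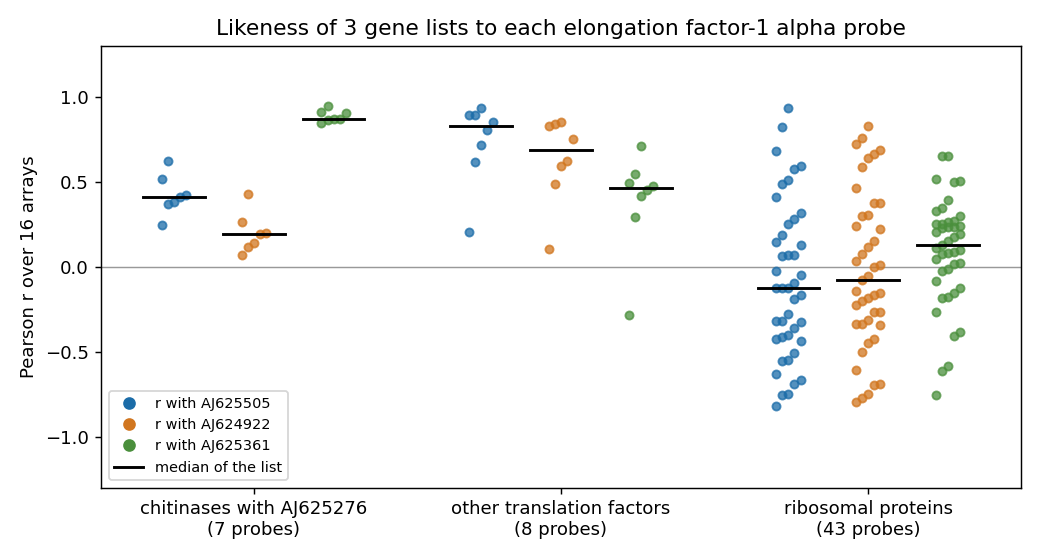
Pearson's r over 16 arrays (vertical axis) between each elongation factor-1 alpha probe (colour) and each probe of 3 lists (horizontal axis), with bars at the medians. The chitin list sits between 0.84 and 0.95 for AJ625361 and has a median of 0.41 and 0.19 for the other probes. The order is the opposite for the other translation factors (0.46 for AJ625361, 0.83 and 0.69 for the others). The values of AJ624922 include the array on which its spots were dark.

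Among the translation machinery around elongation factor-1 alpha, 8 other factors had a description and a row in the study's list. At stage 2 against 1, all 8 lay above 0 (median 0.55), as did 833 of the 1920 probes. Both thresholds were passed by 2 of the 8, against 1.88% of all probes called higher (the list was selected on these arrays, so its direction is not independent evidence). They were the elongation factor 2 probe AJ624248, higher by 0.55 (SE 0.11, adjusted p = 0.0027, limma), and AJ625678, an initiation factor with helicase terms, higher by 0.61 (SE 0.11, adjusted p = 0.00151). Of the others, 4 had an adjusted p under 0.05 with B below 0, and these included AJ625123, elongation factor-1 gamma, at 0.68 ± 0.38 (SD, n = 4), and AJ625894, elongation factor-1 delta, at 0.55 ± 0.30. By adjusted p alone, 6 of the 8 and 121 of the 1920 probes were higher. Replicate 1 gave the highest value of the 4 arrays in 6 of the 8, as it did in 29.8% of all probes, and 0 of the 8 passed both thresholds without it or without replicate 4, and 1 without replicate 3.

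At stage 3 against 2, 7 of the 8 factors lay below 0, with a median of -0.41. Above 0 lay 1 of the 8, against 1062 of the 1920 probes. Again 2 passed both thresholds, against 6.41% of all probes called lower, and as the list was selected on these arrays this is not independent evidence. They were the same probes, AJ624248 at -0.82 (SE 0.11, adjusted p = 1.96e-05, limma) and AJ625678 at -0.63 (SE 0.11, adjusted p = 0.000322). After loess of whole arrays these values were about the size of AJ625361 and not of the other elongation factor-1 alpha probes. With a loess curve for each print block AJ625505 had 0.12, AJ624922 -0.95 and AJ625361 -0.87. The other elongation factor 2 probe, AJ624593, was at -0.55 (SE 0.12, adjusted p = 0.0021, limma, with B of -0.60) and did not pass both. Without replicate 2 or replicate 4, 1 of the 8 was called. The exception in sign was AJ626184, annotated as subunit 6 of initiation factor 3, at 0.32 ± 0.17 (SD, n = 4), whereas AJ623848, with the same description, was at -0.41 ± 0.06. AJ625894 was not above the empty spots on replicate 4, where another print block was dark, and averaged -0.24 ± 0.47 over the other 3 arrays.

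At stage 4 against 3 none of the 8 passed both thresholds (limma), where 57 of the 1920 probes were called higher and 44 lower. At an unadjusted p under 0.05, 1 of the 8 was lower, as were 141 of the 1920 probes. The median of the 8 was -0.05. Of the ribosomal proteins, taken from the same selected list, 26 of 43 were higher at stage 4, with a median of 0.71, where 2.97% of all probes were called higher. The count was 14 with median centring alone (median 1.21) and 16 with plain background subtraction or without replicate 3 of this comparison. The difference between these proteins and the factors was not tested.

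At stage 4 against 1 all 8 factors lay above 0, on the side of AJ625505 and AJ624922 and opposite to AJ625361, with a median of 0.42. Among all 1920 probes 698 lay above 0, and as the list was selected on these arrays its direction is not independent evidence. Of the 8 factors AJ625678 was called, at 0.56 (SE 0.11, adjusted p = 0.00217, limma), where 2.81% of all probes were called higher, and not without replicate 2 or replicate 4. AJ516752, initiation factor 5A, had 0.57 ± 0.29 (SD, n = 4), with an adjusted p of 0.0277 and B below 0. The loop mismatch of the 8 had a median of -0.35, and in 6 it lay below 0, as it did in 741 of the 1920 probes. It passed the test in the elongation factor 2 probe AJ624593 (-0.81, adjusted p = 0.0338, limma) and missed it in AJ624248 (-0.65, adjusted p = 0.058). After loess of whole arrays, AJ625505 and AJ624922 thus had mismatches beyond those of all 8. With a loess curve for each print block that of AJ625505 was -0.29, and those of the 8 are not given for that setting.

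**Figure D5:**
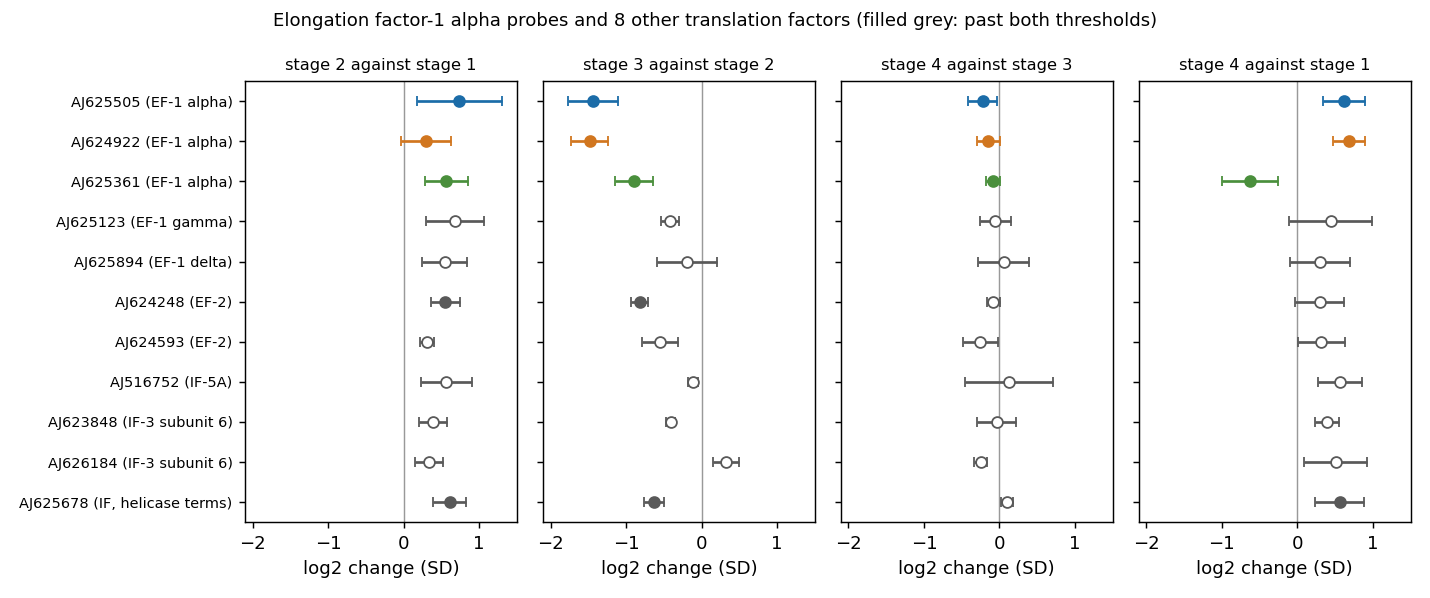
Mean log2 change (horizontal axis, bars are SDs over 4 arrays) of the 3 elongation factor-1 alpha probes and 8 other translation factors (vertical axis) in the 4 comparisons, with filled grey points for factors past both thresholds. At stage 4 against 1, AJ625361 (-0.62) is the one mean below 0. After loess of whole arrays, AJ625505 (-1.44) and AJ624922 (-1.48) are the lowest means at stage 3 against 2. With a loess curve for each print block they were 0.12 and -0.95.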

How the data were processed

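Mantle RNA of female mussels was hybridized to 16 dual-color cDNA arrays. The deposited scanner files hold intensity values that the authors obtained with GenePix, as mean foreground and median local background per spot and channel, not normalized. The authors also deposited log2 ratios made with limma (version not given in the sources used here), whose column medians ran from -0.03 to 0.02; each of the 16 columns correlated best with its own array (lowest r = 0.96), and they served as an alternative. An array had 4560 spots: 3840 for the 1920 probes, 608 empty and 112 for alignment.

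With R 4.3.3 and limma 3.58.1, background was corrected by normexp (offset 50), arrays were normalized by loess with control spots at weight 0, and spots of a probe were averaged. One fit held a coefficient for each of the 4 comparisons. A probe was called at a Benjamini-Hochberg adjusted p under 0.05 over all probes and a log odds B above 0 (prior share 0.01), the loop mismatch and a dye term by adjusted p alone. The fit was tested on simulated data. Channel levels were scaled between arrays by Aquantile. Brightness was net of local background. Number of arrays limits the precision. The files used here give no scan dates or slide numbers.

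Members and lists were chosen with earlier results of these data known, among them that the loop does not close. Named genes were the 3 probes, the 8 other translation factors with a description and a row in the study's list, the 3 probes most like each member, and markers of egg and germ line, sperm and axoneme, digestive gland and muscle; rows of the study's list were paired with clones at a tolerance of 0.005 (368 of 368 rows). Replicate arrays differed by more than the noise between spots (lowest variance ratio 1.39). Correlations of same-numbered arrays ran from -0.21 to 0.17 (4 of 16 over 0.1), so numbers were not taken as pairs.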

Additional observations from a re-analysis of the deposited data

Results flagged for a closer look

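Among 56 groups of arrays or channels examined for a value far from the others of its group, 5 held one, where chance alone gives about 5%. At stage 2 against 1, AJ625505 had a log2 ratio of 1.58 on replicate 1, against 0.43 to 0.50 on the others. On the same array the levels of AJ624922 stood apart in both channels, at 5.88 for stage 2 (11.31 to 11.85 in the other channels) and at 6.08 for stage 1 (9.93 to 11.31), which is the array on which its print block was as dark as empty spots. AJ625123, elongation factor-1 gamma, had 1.27 on replicate 4 of stage 4 against 1, against 0.12 to 0.21 on the others. AJ624248, elongation factor 2, had -0.21 on replicate 1 of stage 4 against 3, against -0.05 to -0.03.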

How the results depend on the processing

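For the log2 changes of the 3 probes, values past 1 SD from those reported were as follows. With median centring alone, the changes at stages 2 against 1, 4 against 3 and 4 against 1 were 1.54, 0.26 and 1.89 for AJ625505 and 1.17, 0.31 and 2.00 for AJ624922, and AJ625361 had 0.96 at stage 2 against 1 and -1.23 at stage 3 against 2. With print-tip loess AJ625505 had 0.033, 0.12 and 0.32 at stages 2 against 1, 3 against 2 and 4 against 1, and AJ624922 had -0.95 at stage 3 against 2. At stage 3 against 2, no background correction gave -1.01, -1.02 and -0.53 for AJ625505, AJ624922 and AJ625361, plain subtraction -1.83, -1.91 and -1.20, and the deposited ratios -1.07 and -1.08 for AJ625505 and AJ624922. At stage 4 against 1, plain subtraction gave 0.96, 1.15 and -1.10 and no background correction -0.24 for AJ625361, which at stage 4 against 3 had -0.22 with plain subtraction. The cause was not tested.

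The loop mismatch of AJ625505 did not pass with median centring (-1.69, adjusted p = 0.0664, limma), print-tip loess (-0.29, 0.411) or scale normalization (-1.17, 0.136), and that of AJ624922 with median centring (-2.14, 0.077). Leaving out arrays gave -1.82 to -1.41 and -2.11 to -1.85. The dye effect became 0.43 for AJ625505 (adjusted p = 0.00078) and 0.60 for AJ624922 (adjusted p = 0.000201) with median centring, a setting that removes no intensity-dependent dye bias. With the replicate number as a block (consensus correlation -0.02) the calls of mismatch and dye were kept, and numbers were not found to pair arrays.

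Of the 8 other factors, the 2 called higher at stage 2 against 1 became 0 with plain subtraction, 7 with median centring, 4 with print-tip loess or the loop fit, and 6 by adjusted p alone (0 to 3 leaving out arrays, with 0 without replicate 1 or 4 and 1 without replicate 3). The 2 called lower at stage 3 against 2 became 1 with plain subtraction, scale normalization or the loop fit and 4 by adjusted p alone (1 to 3 leaving out arrays, with 1 without replicate 2 or 4). The 1 called higher at stage 4 against 1 became 0 with no background correction, scale normalization, array weights or the loop fit, 2 with plain subtraction, and 4 with median centring or by adjusted p alone (0 to 1). Over all probes the calls ranged over the alternatives from 6 to 121 higher and 48 to 187 lower at stage 2 against 1. They ranged from 121 to 294 higher and 105 to 249 lower at stage 3 against 2. The corresponding ranges were 29 to 102 and 6 to 72 at stage 4 against 3. They were 19 to 240 and 53 to 269 at stage 4 against 1. The Pearson r of AJ625361 with AJ625505 was -0.36 with print-tip loess, and that of AJ625505 with AJ624922 was 0.47 there and 0.34 without the arrays of stage 3 against 2, where AJ625361 with AJ624922 had -0.38; settings for r were chosen after seeing the data.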
